A study of Homo sapiens with 12 samples.

Results

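The interleukin-1 (IL-1) family was followed in 12 cultures of MCF-10A, an immortalised, non-tumorigenic human breast epithelial line. The members were chosen by name, as 10 genes of ligands, antagonists and receptors: IL1A, IL1B, IL18, IL33, IL36G, IL1RN, IL36RN, IL1R1, IL1RAP and IL1R2. Each had 1 probe set on the array, so the 10 members are 10 of the 17687 genes that could be named. Of the 10, 9 were above a filter on low signal that 12774 genes passed. IL1R2 was not, and only its levels are given.

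Of the 12 cultures, 4 were of an isogenic line with the HER2 L755S mutation grown alone (the HER2-mutant culture). Another 4 were of a line with the PIK3CA E545K mutation grown alone (the PIK3CA-mutant culture), and 4 were co-cultures of both lines. All shared the MCF-10A background and a medium whose EGF was kept at a physiologic dose. Harvest fell on day 7 to day 14, and no further treatment was given. Per the labels the co-cultures were about 75% HER2-mutant and 25% PIK3CA-mutant cells at harvest, by droplet digital PCR. No line without a mutation was analysed here, each mutation is represented by 1 line, and the harvest day of a culture is not given in the sources used here. Effects of mutation, line and harvest cannot be told apart in the comparisons of the lines.

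IL-1 alpha (IL1A) and IL-1 beta (IL1B) are inflammatory cytokines that bind the same receptor, IL1R1, which signals only after the accessory protein IL1RAP joins it. The receptor antagonist (IL1RN) occupies IL1R1 without recruiting IL1RAP, and the decoy receptor IL1R2 binds ligand without signalling. Epithelial cells store IL-1 alpha and IL-18 and release them on damage, and the bound receptor acts through MYD88 and NF-kB on chemokine and acute-phase genes. IL-36 gamma (IL36G), its antagonist (IL36RN) and the alarmin IL-33 are related ligands of squamous and barrier epithelia.

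Of the members, 7 lie on chromosome 2 in RefSeq's gene order. IL1R2 and IL1R1 head a run of 6 receptor genes with no other coding gene between them. IL1A, IL1B, IL36G, IL36RN and IL1RN belong to a run of 9 ligand and antagonist genes, in which IL1A and IL1B are direct neighbours. The 250 bases before the start of these neighbours, which differ in the results that follow, are shown 5′ to 3′ from RefSeq (GRCh38.p14), at chr2:112784494-112784743 for IL1A and chr2:112836780-112837029 for IL1B, both on the minus strand. Capitals mark matches, on either strand, to the AP-1 motif, spelled TGANTCA, or to a TATA box, spelled TATAAA.
IL1A: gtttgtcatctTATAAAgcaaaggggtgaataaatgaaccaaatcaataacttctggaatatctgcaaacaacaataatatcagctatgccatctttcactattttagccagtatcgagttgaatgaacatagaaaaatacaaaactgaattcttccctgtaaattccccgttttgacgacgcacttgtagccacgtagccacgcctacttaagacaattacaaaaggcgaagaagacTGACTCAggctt
IL1B: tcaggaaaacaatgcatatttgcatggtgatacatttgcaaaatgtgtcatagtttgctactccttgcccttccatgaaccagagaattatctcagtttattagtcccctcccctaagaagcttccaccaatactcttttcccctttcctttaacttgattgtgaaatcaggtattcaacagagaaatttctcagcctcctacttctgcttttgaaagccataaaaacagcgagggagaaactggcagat
The IL1A window held 1 AP-1 match from base -12 to base -6 before the start, and 1 TATA box match at -239 to -234. The IL1B window held 0 matches to either motif or to the NF-kB consensus. Over 35116 promoter windows of this length, 6.57% held the AP-1 motif, 10.7% the TATA box and 9.96% held the NF-kB consensus. RefSeq lists another start for IL1A with 2 AP-1 matches in its window. These are matches of letters and do not show binding.

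Values are log2 probe-set signals as deposited. The median of an array was 6.41 to 6.49, and its 30th percentile, used as the filter, was 4.29 to 4.45. Correlations across genes within a group were 0.9906 to 0.9958. Differences were tested with limma across all 12774 genes with Benjamini-Hochberg adjustment, and "higher" and "lower" below mean an adjusted p under 0.05. Breast epithelial markers were bright on all 12 arrays in each of the 8 measured, among them the basal keratin KRT5 at 17.11 to 17.48. Between the lines, the HER2-mutant culture was higher in 3 of the 8 and lower in 4, against 30.0% and 29.4% of all genes. KRT8 had means of 12.87 and 10.55 there, and KRT7 had means of 13.34 and 16.15.

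Markers of other cell types were checked as whole lists. Of 14 myeloid and other blood cell genes, 8 passed the filter, and PTPRC, LYZ, AIF1, FCER1G, MS4A1 and HBB did not. In the HER2-mutant against the PIK3CA-mutant culture CD3E was higher, CD14, CD68, CSF1R and TYROBP were lower, and 3 did not pass the test. Over all genes, 30.0% were higher and 29.4% lower in this comparison. CD14 had means of 5.39, 7.51 and 7.78 in the HER2-mutant, PIK3CA-mutant and mixed cultures, CD68 had means of 5.23, 7.38 and 7.21, and CSF1R had means of 6.95, 8.44 and 7.61. The summed level of the 14 genes was 9.04 to 9.18, 9.92 to 10.17 and 9.72 to 9.86 in the same order. Of 7 fibroblast genes 5 passed the filter, and LUM and PDGFRB did not. FAP had means of 5.22, 11.17 and 11.19 and DCN had means of 10.70, 7.07 and 8.03, and the sums were 10.95 to 11.33, 11.39 to 11.66 and 11.34 to 11.84. Of 4 endothelial genes 1 passed, with sums between 6.21 and 6.76. The part of these genes in the results was not tested.

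**Figure D1:**
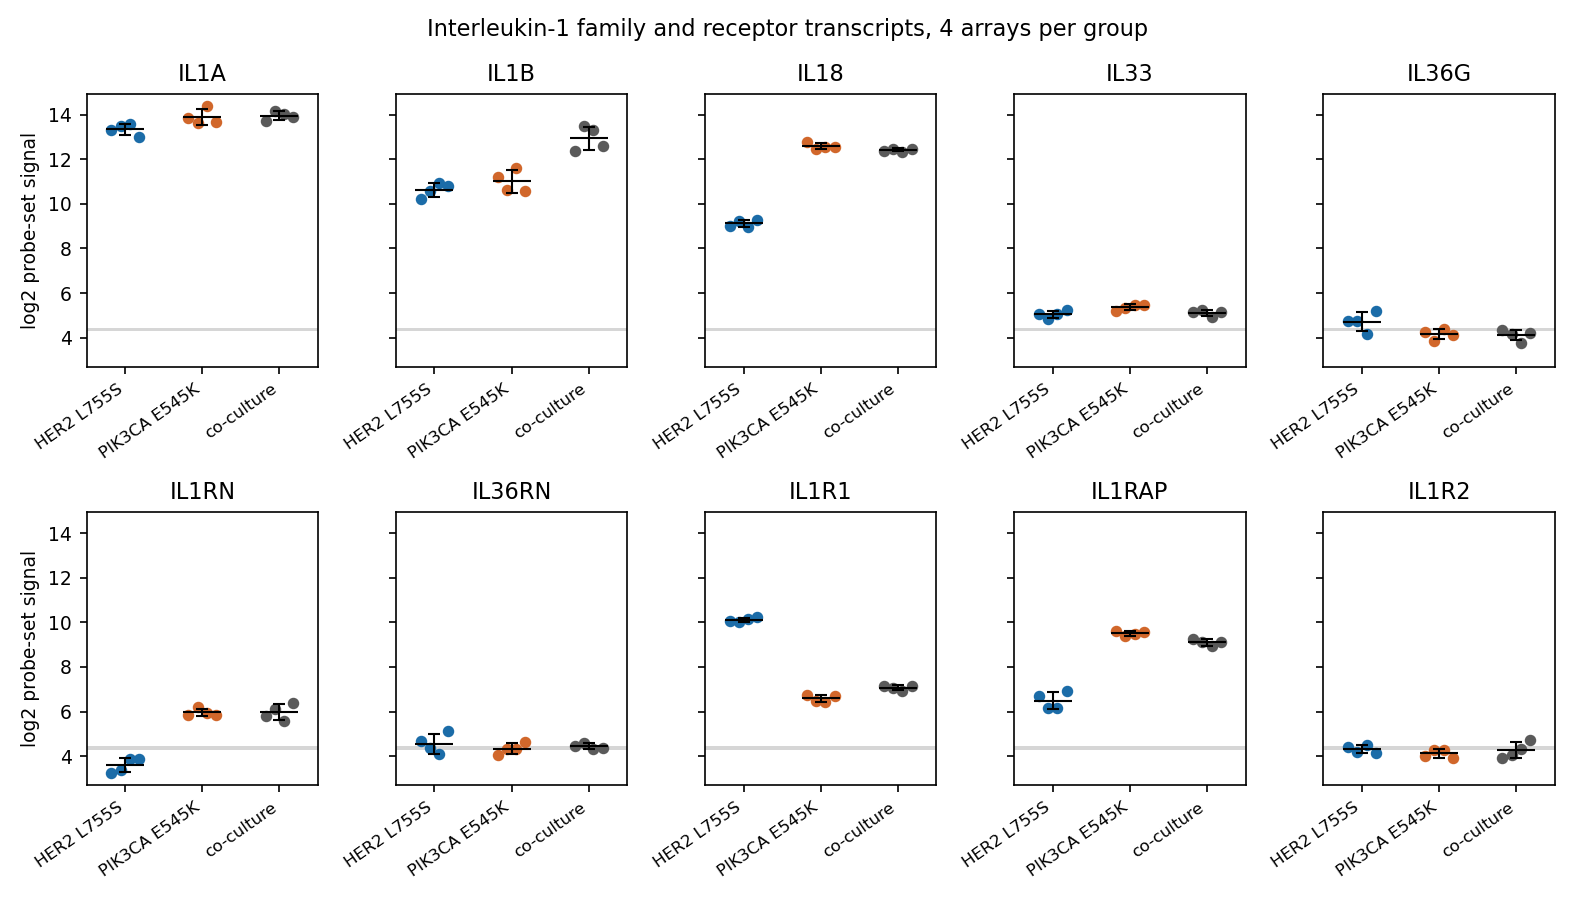
Log2 probe-set signal (vertical axis) of the 10 members on each array, by culture. Points are arrays, horizontal bars and whiskers the mean and SD of 4 arrays, and the grey band the 30th percentile of the arrays (4.29 to 4.45). IL1B stands apart in the co-culture at 12.39 to 13.47, and IL1R1 in the HER2-mutant culture at 10.02 to 10.22.

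The single cultures were compared to see where the lines differ. The parts of the IL-1 receptor system differed between them in opposite directions. The HER2-mutant culture carried 11.6-fold more IL1R1, the ligand-binding receptor, and 8.19-fold less IL1RAP, the partner that receptor needs. It also carried 11.0-fold less IL18 and little or no measurable IL1RN, the antagonist. The ligands IL1A and IL1B were bright in both lines and differed little. In all, 2 members were higher and 4 lower of 9 tested, against 59.4% of all genes called in either direction (30.0% higher and 29.4% lower). The arrays of both lines did not overlap for 5 of the 9, against 52.9% of all genes. With 6 of 9 called, the count of members is near that background. The median difference was -0.37 over the members and 0.05 over all genes tested.

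Among the ligands, IL1A read 13.31, 13.47, 13.57 and 13 in the HER2-mutant arrays and 13.83, 13.62, 14.39 and 13.67 in the PIK3CA-mutant arrays. It was among the brightest transcripts in both, above 91.7% of the probe sets of every array. The arrays of both lines did not overlap, by a narrow gap, and the difference was -0.54 ± 0.14 on the log2 scale (SE, limma adjusted p 0.0019). IL1B read 10.21, 10.58, 10.94 and 10.78 in the HER2-mutant arrays and 11.22, 10.62, 11.60 and 10.57 in the PIK3CA-mutant arrays. These values overlapped, and the difference of -0.37 ± 0.22 did not pass (SE, limma adjusted p 0.154), with a 95% interval from -0.83 to 0.09.

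IL18, whose product is stored as an inactive precursor and cut by caspase-1, separated the lines widely. It read 9.01, 9.25, 8.94 and 9.27 in the HER2-mutant arrays and 12.77, 12.44, 12.56 and 12.53 in the PIK3CA-mutant arrays. Every PIK3CA-mutant array was more than 3 log2 units above every HER2-mutant one, and the difference was -3.46 ± 0.10 (SE, limma adjusted p 1.98e-18). Of the 12774 genes, 207 had a lower value in this comparison. IL33 was dim, at 4.84 to 5.24 and 5.20 to 5.47, and did not pass (-0.32, adjusted p 0.0679). It passed without HER2-mutant replicate 4 (-0.39, adjusted p 0.0393), under quantile normalization (-0.39, adjusted p 0.0317) and with no trend of the spread (adjusted p 0.0224).

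IL36G lay at 4.17 to 5.19 in the HER2-mutant arrays and 3.87 to 4.40 in the PIK3CA-mutant ones. It passed the filter on exactly the 4 arrays required, 3 of them HER2-mutant, so its entry to the test depended on the group where it was higher. The difference of 0.56 ± 0.19 (SE, limma adjusted p 0.016) was lost without HER2-mutant replicate 4 (0.40, adjusted p 0.075) or PIK3CA-mutant replicate 2 (0.46, adjusted p 0.0636).

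Of the antagonists, IL1RN read 3.26, 3.39, 3.87 and 3.89 in the HER2-mutant arrays, all under the 30th percentile. In the PIK3CA-mutant arrays it read 5.85, 6.21, 5.93 and 5.84, all above it. It passed the filter through the groups where it is bright. The fitted difference was -2.35 ± 0.19 (SE, limma adjusted p 2.47e-10). With the dim arrays set to their 30th percentile, IL1RN was at least 2.92-fold higher in the PIK3CA-mutant culture. IL36RN, the natural brake on IL-36 signalling, was close to the filter in both lines (means 4.56 and 4.34) and did not pass (0.22, adjusted p 0.335).

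The receptor genes moved in opposite directions. IL1R1 read 10.08, 10.02, 10.14 and 10.22 in the HER2-mutant arrays and 6.75, 6.47, 6.42 and 6.70 in the PIK3CA-mutant arrays. The spread within a line was far smaller than the gap, and the difference was 3.53 ± 0.13 (SE, limma adjusted p 2.5e-16). Only 46 of the 12774 genes had a larger positive difference. IL1RAP read 6.69, 6.14, 6.17 and 6.91 against 9.62, 9.38, 9.49 and 9.55. Its difference was -3.03 ± 0.16 (SE, limma adjusted p 1.01e-13), again with no overlap of arrays. The decoy receptor IL1R2 was at or below the filter on 10 of 12 arrays, between 3.92 and 4.73 over all, with means of 4.30, 4.12 and 4.26 in the HER2-mutant, PIK3CA-mutant and mixed cultures.

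The comparison of the co-culture with the HER2-mutant culture asked how the mixture differed from its majority line. IL1B was 4.94-fold higher in the co-culture, IL18 was 9.83-fold higher and IL1RAP 6.15-fold higher, and IL1R1 was 8.29-fold lower. Of the 9 members tested, 5 were higher and 2 lower, against 24.9% and 26.0% of all genes (50.9% in either direction). The arrays did not overlap for 6 of the 9, against 44.4% of all genes. The median difference was 0.61 over the members and -0.05 over all genes. In bulk RNA of a mixture, a change in the number of cells of one line and a change in RNA per cell cannot be told apart.

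IL1B in the co-culture arrays read 12.39, 13.47, 13.29 and 12.59, all above every HER2-mutant and every PIK3CA-mutant array. It was 2.31 ± 0.22 above the HER2-mutant culture (SE, limma adjusted p 7.22e-09). IL1A, its neighbour on the chromosome, read 13.70, 14.17, 14.03 and 13.91 and was 0.61 ± 0.14 above it (SE, limma adjusted p 0.000785). Both ligands were thus higher than in the HER2-mutant culture.

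IL18 read 12.38, 12.48, 12.34 and 12.47 in the co-culture arrays, 3.30 ± 0.10 above the HER2-mutant culture (SE, limma adjusted p 1.03e-17). IL1RN read 5.78, 6.11, 5.58 and 6.39 and was at least 2.93-fold higher than the dim HER2-mutant arrays at their 30th percentile. The fitted difference of IL1RN was 2.36 ± 0.19 (SE, limma adjusted p 4e-10). IL1RAP read 9.26, 9.10, 8.92 and 9.11, a difference of 2.62 ± 0.16 (SE, limma adjusted p 2.65e-12). For these 3 genes no co-culture array overlapped a HER2-mutant one.

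IL1R1 read 7.16, 7.04, 6.91 and 7.15 in the co-culture arrays, far under the HER2-mutant level, with a difference of -3.05 ± 0.13 (SE, limma adjusted p 6.53e-15). Only 36 genes of 12774 had a more negative one. IL36G, dim in every group, differed by -0.61 (limma adjusted p 0.0113). It did not pass without HER2-mutant replicate 4 (-0.45, adjusted p 0.0533) or co-culture replicate 3 (-0.49, adjusted p 0.0525). All 4 co-culture arrays were under the filter and 3 of 4 HER2-mutant arrays above it, which gives at least 1.30-fold lower in the co-culture. IL33 (0.08, adjusted p 0.67) and IL36RN (-0.12, adjusted p 0.619) did not pass.

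The comparison of the co-culture with the PIK3CA-mutant culture asked the same of its minority line. It shares the co-culture arrays with the preceding comparison. Only IL1B and IL1R1 of the 9 members were higher, by 3.82-fold and 1.39-fold, and 0 were lower, against 25.6% of all genes (11.1% higher and 14.6% lower). For 3 of the 9, IL1B, IL1R1 and IL1RAP, the arrays did not overlap, against 28.3% of all genes. By an unadjusted p under 0.05, IL1RAP would count as lower. The median difference was 0.01 over the members and -0.02 over all genes.

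IL1B was 1.93 ± 0.22 above the PIK3CA-mutant culture (SE, limma adjusted p 8e-07), and 34 of the 12774 genes had a larger positive difference. IL1R1 was 0.48 ± 0.13 above it (SE, limma adjusted p 0.00965), with the lowest co-culture array at 6.91 and the highest PIK3CA-mutant array at 6.75. IL1RAP differed by -0.41 ± 0.16 (SE) and stood close to the threshold (limma adjusted p 0.0612), although the arrays of the groups did not overlap. Its call was gained without HER2-mutant replicate 2 (adjusted p 0.0426), 3 (0.0483) or 4 (0.0292), arrays that enter this contrast only through the shared estimate of the spread. It was also gained with a filter at the 50th percentile (0.0467).

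The other members lay near the PIK3CA-mutant level without passing. IL18 differed by -0.16, with a 95% interval from -0.37 to 0.05, and IL1A by 0.07, from -0.22 to 0.36. For IL1RN the difference was 0.01, from -0.39 to 0.40, and for IL33 it was -0.24, from -0.55 to 0.07. For IL36G it was -0.05, from -0.45 to 0.35, and for IL36RN 0.10, from -0.30 to 0.49.

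**Figure D2:**
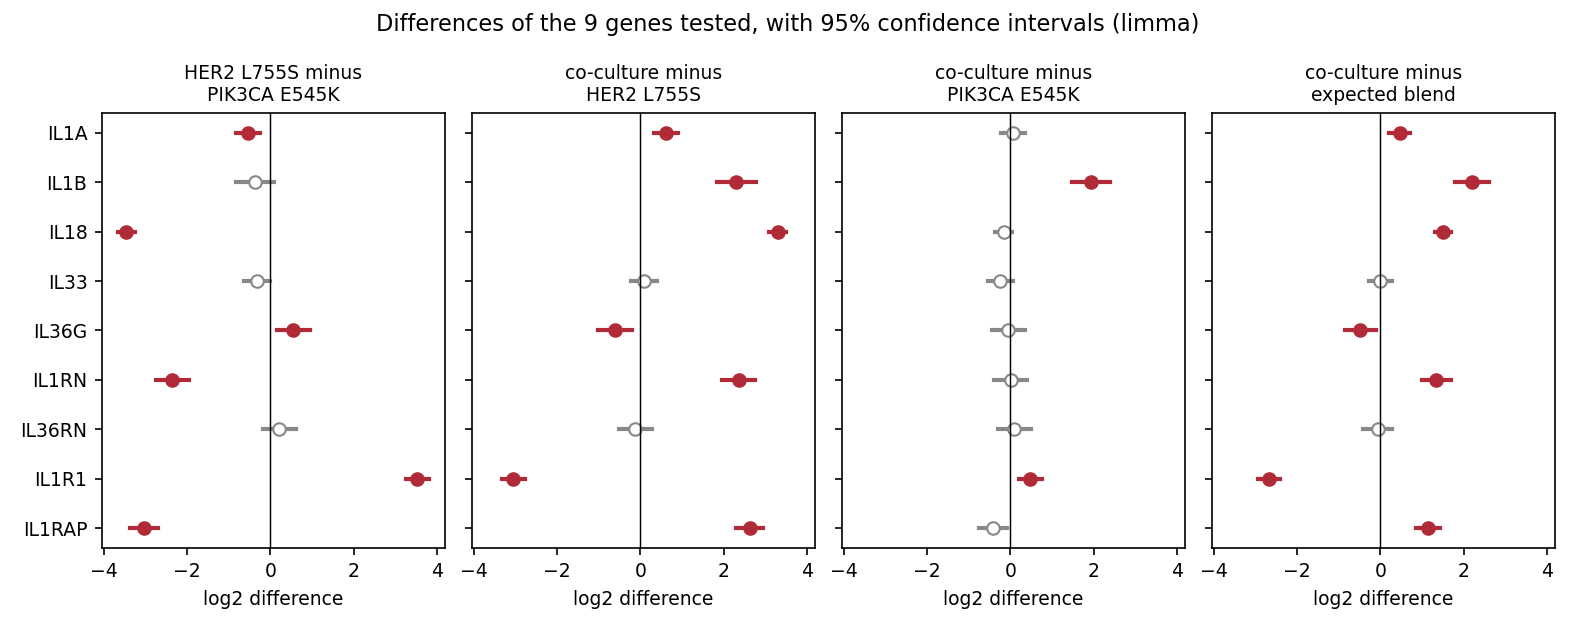
Log2 differences (horizontal axis) of the 9 tested members in 4 comparisons. Points are limma estimates and lines 95% confidence intervals, filled red where the adjusted p was under 0.05 and open grey otherwise. IL1B is past the threshold in each panel except that of the single cultures.

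The comparison with an expected blend asked whether the co-culture equalled its parts. The blend added 75% of the HER2-mutant linear signal to 25% of the PIK3CA-mutant one, so it assumes equal RNA per cell and no change of either line. The co-culture departed from it for 7 of the 9 members, 5 higher and 2 lower, against 40.8% of all genes (18.5% higher and 22.3% lower). IL1B exceeded the blend 4.61-fold, IL18 by 2.81-fold, IL1RAP by 2.20-fold and IL1A by 1.37-fold. IL1RN exceeded it by at least 1.98-fold with the dim HER2-mutant arrays at their 30th percentile. IL1R1 was 6.39-fold below it.

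The IL1B blend was 10.73 and the co-culture mean 12.94 ± 0.52 (SD, n = 4), a difference of 2.20 ± 0.20 (SE, limma adjusted p 6.23e-09). Of the 12774 genes, 15 exceeded their blend by more. The IL1R1 blend was 9.74 and the co-culture mean 7.07 ± 0.12 (SD, n = 4), a difference of -2.68 ± 0.13 (SE, limma adjusted p 3.31e-13), with 37 genes further below theirs. IL18 was 1.49 ± 0.09 above its blend (adjusted p 1.23e-11) and IL1RAP 1.14 ± 0.14 (1.07e-06), each with the SE. The fitted difference of IL1RN was 1.34 ± 0.17 (9.44e-07). IL1A was 0.46 ± 0.12 above it (SE, limma adjusted p 0.00479), a call lost for a blend with 50% HER2-mutant cells (0.32, adjusted p 0.0614). IL36G lay -0.48 from it (limma adjusted p 0.0325), a call lost without HER2-mutant replicate 1, 2 or 4 (adjusted p 0.0545, 0.0529 and 0.10) and without co-culture replicate 2 or 3 (0.0563 and 0.14). It was also lost for blends with 50% and 65% HER2-mutant cells (0.136 and 0.0559). IL33 (-0.004, adjusted p 0.985) and IL36RN (-0.07, adjusted p 0.786) did not pass.

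For members with a co-culture mean between the lines, the departure can be read as a position on the linear scale. It runs from 0% at the HER2-mutant mean to 100% at the PIK3CA-mutant mean. Of those called between the lines, IL18 lay at 88.4%, IL1R1 at 96.3% and IL1RAP at 71.6%. IL33 lay at 23.8% and IL36RN at 57.9%, but neither passed the test between the lines. Over the 2713 genes called between the lines with a log2 difference of 1 or more, the median position was 69.8%. The co-culture as a whole therefore lay nearer the PIK3CA-mutant culture than its cell numbers, and IL1RAP sat near that general position.

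IL1B alone among the members was higher than in both single cultures. This test asks for a level that no blend of the lines could give, taking the larger of both contrast p-values. IL1B passed it by 1.93 (limma adjusted p 8.59e-06), against 1.86% of all genes outside both single cultures (1.01% above and 0.845% below), and 4 genes of 12774 stood further above both. IL1A (0.07, limma adjusted p 1) and IL1RN (0.01, limma adjusted p 1) had means above both without passing.

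**Figure D3:**
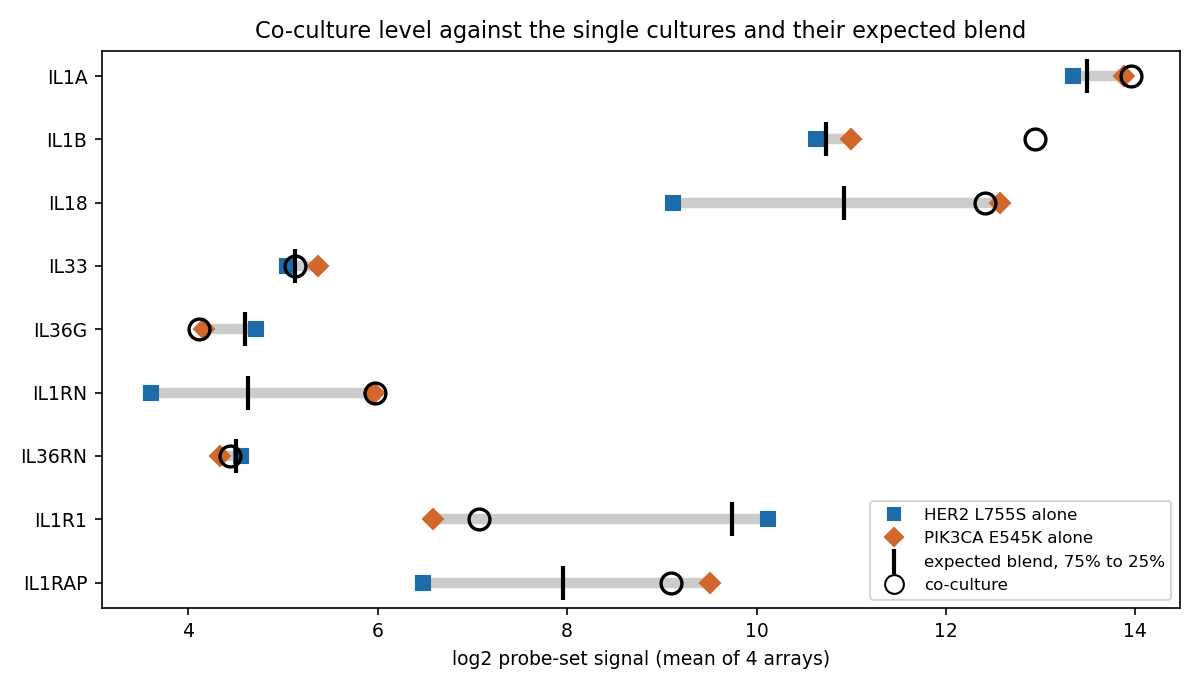
Mean log2 probe-set signal (horizontal axis, 4 arrays each) of the 9 tested members in the HER2-mutant culture (blue squares), the PIK3CA-mutant culture (orange diamonds) and the co-culture (open circles). Black ticks mark the expected blend of 75% and 25%, and grey bars join the single cultures. The HER2-mutant mean of IL1RN is under the filter. The IL1B circle, at 12.94, lies beyond both single cultures, at 10.63 and 11.00.

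For pairs of members the difference of their log2 signals was taken within each array and compared between groups by a two-sided exact permutation test, in 5 pairs and 3 comparisons. The smallest p that 4 arrays against 4 allow is 0.0286, which stood at 0.0477 after adjustment over the 15 tests. Only 5 of the 15 had both members above the filter on every array compared, and 3 of those reached 0.0477. These calls sit at the edge: with every signal under the filter raised to it, an alternative chosen after seeing the data, 0 of the 15 passed and the same differences had an adjusted p of 0.0536. The level of one probe set cannot be set against that of another, so only changes of these differences are read.

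The neighbours IL1A and IL1B parted in the co-culture. IL1A minus IL1B was 2.71 ± 0.38 in the HER2-mutant culture, 2.88 ± 0.22 in the PIK3CA-mutant culture and 1.02 ± 0.34 in the co-culture (SD, n = 4 each). The co-culture differed from the lines by -1.69 and -1.86 (exact permutation p 0.0286 each, adjusted p 0.0477), and the lines from each other by -0.17 (exact permutation p 0.514).

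IL1B minus IL1RN, an agonist against the antagonist, was 1.93 greater in the mixture than in the PIK3CA-mutant culture (exact permutation p 0.0286, adjusted p 0.0477), and IL1A minus IL1RN differed there by 0.06 (exact permutation p 0.743). IL1RN was under the filter in the HER2-mutant arrays. With it at the 30th percentile, IL1A minus IL1RN was greater by at least 1.00 in the HER2-mutant than in the PIK3CA-mutant culture, and IL1B minus IL1RN by at least 1.17. For IL1B minus IL1RN the change from the HER2-mutant culture to the mixture was at most 0.75, and its sign is not settled. The pairs with IL1R2, IL36G and IL36RN held signals under the filter and are not read.

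The wider receptor family was measured in 8 further genes, of which 5 passed the filter. Relative to the PIK3CA-mutant culture, the HER2-mutant one was higher in 3 and lower in 1, against 30.0% and 29.4% of all genes. IL18R1, the ligand-binding chain for IL-18, was higher by 1.42 ± 0.24, and SIGIRR, an inhibitory receptor, by 0.65 ± 0.14 (SE). IL18BP, which neutralises IL-18, was higher by 0.63, a call lost without PIK3CA-mutant replicate 1 (0.45, limma adjusted p 0.0546). IL1RL2, the IL-36 receptor, had a mean of 6.24 in the PIK3CA-mutant culture and 3.83, under the filter on all 4 arrays, in the HER2-mutant one, at least 3.55-fold lower. In the co-culture IL1RL2 had a mean of 4.99, between both lines. The ligands IL36A, IL36B, IL37 and IL1F10 did not pass the filter, with at most 1 of 12 arrays above it.

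Of 30 listed genes that carry the receptor's signal and restrain it, 23 were measured and 21 passed the filter. IRAK1 and IRAK4 were not measured, and IRAK2 did not pass. The HER2-mutant culture was higher than the PIK3CA-mutant one in 14 of 21 and lower in 1, against 30.0% and 29.4% of all genes. The median was 0.59 against 0.05. The NF-kB subunit REL was higher by 3.06, RELB by 1.78 and the NF-kB brake TNFAIP3 (A20) by 1.47. The ubiquitin ligase gene PELI2 was above the filter only on the 4 HER2-mutant arrays, through which it passed, and was at least 2.13-fold higher there than in the PIK3CA-mutant culture (means 5.39 and 3.23). The kinase gene MAP3K7 was lower, at -0.64, and the count of lower genes was 2 when HER2-mutant replicate 2, PIK3CA-mutant replicate 4 or co-culture replicate 4 was left out. Against the PIK3CA-mutant culture, the co-culture was higher in 7 of 21 and lower in 0, with 14 that did not pass, against 11.1% and 14.6% of all genes. REL was higher by 1.71, TNFAIP3 by 1.54, NFKBIA, the inhibitor of NF-kB, by 0.99 and RELB by 0.82. Relative to the HER2-mutant culture, the co-culture was higher in 2 of 21 and lower in 12, against 24.9% and 26.0% of all genes. The median there was -0.46, with REL at -1.355 and RELB at -0.96. The count of 2 was 1 without HER2-mutant replicate 1 or co-culture replicate 3. Of the 21, 2 were above the expected blend and 12 below it, against 18.5% and 22.3% of all genes. With 50% HER2-mutant cells in the blend, 7 were below it. TNIP1, a partner of A20, was above both single cultures, by 0.50, the only 1 of the 21, against 1.01% of all genes.

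Of 26 listed genes of the inflammasome, of processing and of release, 24 were measured and 18 passed the filter. Among the 18, the HER2-mutant culture was higher in 4 and lower in 10 than the PIK3CA-mutant one, against 30.0% and 29.4% of all genes. The inflammasome adaptor PYCARD (ASC) differed by -3.52, the gasdermins GSDMC and GSDME by -4.40 and -3.43, and S100A13, a carrier in IL-1 alpha release, by -2.27. GSDMD, the gasdermin that caspase-1 opens, was higher by 1.35, and the protease gene CTSS by 1.66. In the co-culture against the PIK3CA-mutant culture 2 were higher, GSDMD by 0.73 and CTSS by 0.69, and 8 lower, against 11.1% and 14.6% of all genes. GSDME differed by -1.13, GSDMC by -0.72, PANX1 by -0.65 and PYCARD by -0.59. Relative to the HER2-mutant culture, the co-culture was higher in 8 of 18 and lower in 5, against 24.9% and 26.0% of all genes. GSDMC was higher there by 3.68 and PYCARD by 2.94, whereas CTSS differed by -0.97. Of the 18, 8 were above the expected blend and 5 below it, against 18.5% and 22.3% of all genes. The 8 became 2 with 50% and 4 with 65% HER2-mutant cells. The 5 became 3 without co-culture replicate 4. CASP1, which cuts the precursors of IL-1 beta and IL-18 and was singled out after its values were seen, differed by -0.64 between the lines. In the mixture it was -0.54 from the PIK3CA-mutant level. The sensor genes NLRP3, NLRC4 and AIM2 did not pass the filter, and NLRP1 was not measured. CARD8, another inflammasome gene of the list, was above the filter on all 12 arrays. It was higher in the HER2-mutant than in the PIK3CA-mutant culture by 1.03.

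Of 32 listed textbook epithelial targets of IL-1, 28 were measured and 22 passed the filter. LCN2, DEFB4A, CXCL5, PDPN, TSLP and MMP9 were measured and did not pass it. Among the 22, the HER2-mutant culture was higher in 5 and lower in 7 than the PIK3CA-mutant one. The 12 called are near the 59.4% of all genes. SAA1, an acute-phase protein, was higher by 5.48 and S100A8 by 2.39, whereas the neutrophil chemokine CXCL8 differed by -5.82 and PTGES, a prostaglandin synthase, by -3.38. Against the PIK3CA-mutant culture, the co-culture was higher in 10 and lower in 3, against 11.1% and 14.6% of all genes, with a median of 0.25 against -0.02. S100A8 was higher by 2.42, S100A7 by 2.30, S100A9 by 2.09 and SAA1 by 1.80. The 3 lower genes were PTGES (-1.47), TNFAIP2 (-0.75) and CXCL8 (-0.71), and without PIK3CA-mutant replicate 3 or co-culture replicate 4 the count was 1. The call of CXCL8 was lost without either (limma adjusted p 0.065 and 0.0637), and that of TNFAIP2 without any 1 of the 8 arrays compared (0.0564 to 0.132). Against the HER2-mutant culture 12 were higher and 1 lower, against 24.9% and 26.0% of all genes. CXCL8 was higher by 5.12 and S100A7 by 3.34, and SAA1 differed by -3.69. IL6 was under the filter on the 4 HER2-mutant arrays (mean 3.57) and at least 3.46-fold higher in the co-culture (mean 6.21).

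Of these targets, 3 stood above both single cultures in the test, against 1.01% of all genes. S100A7 was above both by 2.30 and S100A9 by 1.07. The third, CSF3 (G-CSF), was above the filter only on the 4 co-culture arrays, through which it passed, so that 2 of the 3 rest on signals above the filter in every group. Its means were 3.43 and 3.61 in the lines and 4.61 in the co-culture, at least 1.14-fold and 1.24-fold higher than the HER2-mutant and PIK3CA-mutant cultures. Without co-culture replicate 1 the count was 5. S100A7 and SAA1 have close relatives in the genome, and which of them gave the signal is uncertain.

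**Figure D4:**
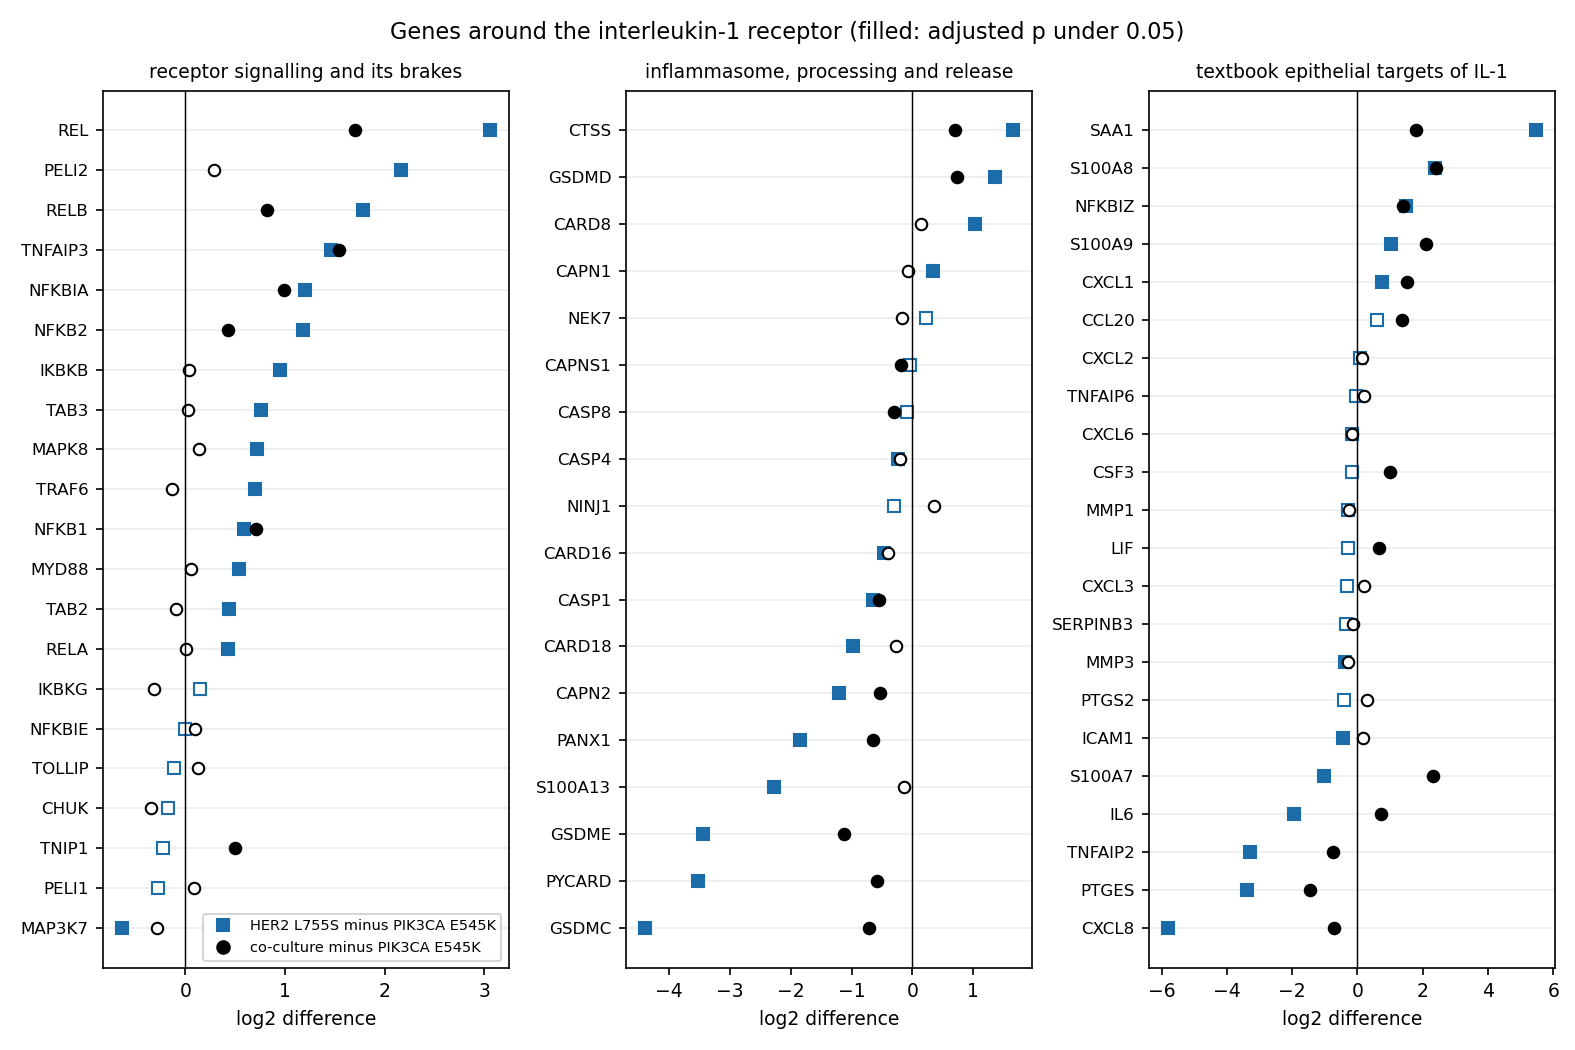
Log2 differences (horizontal axis) of the genes around the receptor that passed the filter, in 3 lists. Blue squares give the HER2-mutant minus the PIK3CA-mutant culture and black circles the co-culture minus the PIK3CA-mutant culture, filled where the limma adjusted p was under 0.05. In the target list S100A7 is at -1.03 between the lines and at 2.30 in the co-culture.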

How the data were processed

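RNA of 12 cultures was labelled from 5 µg of total RNA and hybridised to whole-transcript arrays, per the labels. The deposited values are log2 signals per probe set. For making them, the submitters' processing notes name 1 program, Transcriptome Analysis Console. The version, normalization, summarization and genome build are not given in the sources used here, and array medians were near equal, so the values were used as they stand. Of 24351 probe sets, 17709 carried exactly 1 gene symbol in the platform annotation, for 17687 genes. The brightest probe set was used for the 20 genes with several. Tests covered genes brighter than the 30th percentile of an array's probe sets on at least 4 arrays.

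In limma 3.58.1 (R 4.3.3) the 3 groups were fitted to all 12 arrays with a trend of the spread with signal. Tests were two-sided at an adjusted p of 0.05. For the blend, the moderated standard error was used with delta-method weights. The 4 cultures of a group were parallel cultures of 1 line or mixture, so p-values measure only the spread between them. The method was tested on simulated data. The number of arrays limits the precision.

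The members and lists were chosen with earlier results of these data known. The rule named all members and, of each list, up to 4 genes per direction and comparison with the largest differences past the threshold, of which fewer are printed, and the 3 genes most like a member. Alternatives were other normalization, filters, spread models, blends, a margin, a replicate block and leaving out each array.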

Additional observations from a re-analysis of the deposited data

How the results depend on the processing

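Between the single cultures, against the HER2-mutant culture, against the blend and outside both, the number of members called kept within 1.5 times its value under all alternatives run. Leaving out 1 array gave 5 to 6, 6 to 7, 6 to 7 and 1 to 1 members, and against the PIK3CA-mutant culture 2 to 3. There a margin of 0.5 (log2) left 1 member, IL1B. The calls of IL18, IL1RN, IL1RAP, IL1R1 and IL1B against the blend held for every blend run, from 50% to 85% HER2-mutant cells. Over the alternatives, the adjusted p of IL1RAP reached 0.0451. Blends with fewer HER2-mutant cells, nearer the median position of 69.8%, were not run, so the calls are not known to hold there. IL1RAP itself lay at 71.6%, so a blend at that median position would nearly equal its co-culture level. The calls of IL1A and IL36G between the lines and against the HER2-mutant culture were lost against the margin, and IL36G against the blend under quantile normalization (adjusted p 0.0555).

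Signs turned only for differences that had not passed. Under quantile normalization IL1RN against the PIK3CA-mutant culture was -0.026 and IL33 against the blend 0.022, and with 85% HER2-mutant cells the latter was 0.0305. Leaving out 1 array gave ranges of -0.13 to 0.14 for IL1RN, -0.016 to 0.24 for IL1A and -0.14 to 0.067 for IL36G against the PIK3CA-mutant culture. They were -0.28 to 0.063 for IL36RN against the HER2-mutant culture, and -0.19 to 0.071 for IL36RN and -0.053 to 0.057 for IL33 against the blend. The cause was not tested.

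Replicate numbers shared between groups did not pair the arrays: 0 of 12 same-numbered pairs had deviations from the group means that correlated above 0.1 (range -0.035 to 0.062). With the replicate block, IL1RAP passed against the PIK3CA-mutant culture (-0.41, adjusted p 0.0402), and no other member's call changed. The margin moved list counts by over 1.5 times: signalling genes 8 higher and 0 lower between the lines, 4 lower and 0 higher against the HER2-mutant and 3 higher against the PIK3CA-mutant culture. Targets were then 4 lower between the lines, 7 higher against the HER2-mutant, and 6 higher and 1 lower against the PIK3CA-mutant culture. Inflammasome genes were 0 higher and 1 lower against the PIK3CA-mutant culture, and 1 lower against the HER2-mutant culture. S100A9 outside both was lost with a robust spread (limma adjusted p 0.0621). TNFAIP2 against the PIK3CA-mutant culture was lost under quantile normalization (0.073), a robust spread (0.135), no trend (0.102), no filter (0.0623) and against the margin. With signals under the filter raised to it, 0 of the 15 pair tests passed (9 otherwise), and IL1B minus IL1RN between the mixture and the HER2-mutant culture turned from -0.06 to 0.75. The list and raised-signal alternatives were chosen after seeing the data. All probe sets near the 30th percentile, among them IL36G, IL36RN and IL1R2, limit what could be seen.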

Other observations

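In each group the array with the highest IL1B signal also had the highest IL1A signal: replicate 3 of the HER2-mutant culture (10.94 and 13.57), replicate 3 of the PIK3CA-mutant culture (11.60 and 14.39) and replicate 2 of the co-culture (13.47 and 14.17). The lowest arrays matched only in the co-culture. In the HER2-mutant culture, replicate 1 was lowest for IL1B (10.21) and replicate 4 for IL1A (13). The match of the highest arrays was seen in the values afterwards and was not tested.

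Over the 12 arrays, which fall in 3 groups, the genes most like a member in log2 signal were found by Pearson's r, as a description. For IL1B they were TADA3 (0.95), S100A7 (0.95) and ARL2 (0.94). For IL1R1 they were TSHZ2 (0.999), USP54 (0.997) and WNT4 (0.995), and for IL18 they were VIM (0.997), NUSAP1 (0.997) and IDI1 (0.997). For IL1RAP they were FAM83D (0.995), SMOC1 (0.994) and GSTO1 (0.994), and for IL1RN they were TRIM2 (0.99), SLC36A1 (0.988) and ALDH1L2 (0.987).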
